A study of Homo sapiens with 2 samples.

Results

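Of the 49245 chromatin interactions listed for the fusion protein TCF3::HLF in HAL-01 leukemia cells, 822 joined the promoter of a gene to the body of that same gene. They were chosen by position alone. Exactly 1 of the 2 bins of 5 kb had to hold the start site of a protein-coding transcript (GENCODE release 44, hg38), and the other bin had to hold none but overlap the annotated body of a gene that starts in the first bin. The first is called the promoter bin here and the second the body bin. These own gene body interactions belonged to 462 genes and used 548 promoter bins and 795 body bins. One of the 822 was assigned to 2 genes that start in the same bin, and each other interaction to 1 gene.

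HAL-01 is a cell line from a leukemia with the translocation t(17;19), which fuses TCF3 to HLF, so that all values here come from 1 line. The cells stably expressed Cas9 with GFP and carried a knockout of wild-type TCF3, and an antibody against E2A (the TCF3 protein) was used for HiChIP, a method that joins immunoprecipitation to chromosome conformation capture. The single condition had 2 replicates, both with this genotype and antibody, and the authors merged them before calling interactions, so that none of the values has a replicate error. The contact count of an interaction is the number of read pairs that join its bins, and the contact counts of the 822 interactions added up to 24993. HiChIP holds no RNA, so the labelled cell type was not checked against marker genes.

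As background, TCF3::HLF binds DNA through the basic leucine zipper of HLF, which recognizes a short, nearly palindromic sequence. Enhancers often lie inside the introns of the genes they act on, and in long genes further start sites lie downstream of the first, so that contacts between a start site and its own gene can run in both directions. A HiChIP contact shows proximity in immunoprecipitated chromatin and not an effect on transcription.

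The sequences below show HLF motifs, searched as exact TTACGTAA or TTATGTAA on either strand, in the bins of the strongest own gene body interactions and of 4 genes of the lists described further on. They were read from the hg38 reference, each is 30 bases long and written 5′ to 3′ on the strand named, and the capitals mark the motif. A match is a description of the reference and not a mapped binding site.
RGS3 body bin, chr9:113453181-113453210, minus strand: taatgagtataTTATGTAAtcatataatga
EXOC6B body bin, chr2:72770435-72770464, plus strand: tctgtcacataTTATGTAAcatcccagtaa
EXOC6B promoter bin, chr2:72826797-72826826, plus strand: tgcttgagtttTTACGTAAcacaatgaatg
LHFPL6 body bin, chr13:39451465-39451494, minus strand: ctttggctaggTTATGTAAtaggttggcta
SEC14L1 body bin, chr17:77099121-77099150, plus strand: gctgtggagggTTATGTAAcagtggttatg
SLC1A2 body bin, chr11:35340827-35340856, plus strand: tctctggactcTTATGTAAcaagttacata
PALM2AKAP2 body bin, chr9:109914089-109914118, plus strand: caggtctgcagTTATGTAAacatccacagg
ASAP2 body bin, chr2:9332787-9332816, minus strand: cgtgtttttctTTATGTAActattttctta
LMLN promoter bin, chr3:197961741-197961770, minus strand: aaccaaaaaagTTATGTAAtttcctgtagc
MEF2C body bin, chr5:88758861-88758890, plus strand: tcttgaactctTTACGTAAcaggctgaaat
NFIA promoter bin, chr1:61204528-61204557, plus strand: atcctggatggTTACGTAAgttccatttta
ELF1 body bin, chr13:41052397-41052426, plus strand: aaactaaaaatTTATGTAAgttcattgtca
PECAM1 promoter bin, chr17:64413827-64413856, plus strand: gtgctaaacagTTATGTAAcagccaagtct
Each of these windows is a single copy from its bin, and several bins held more. The RGS3 body bin held 7 copies, the most of any body bin among the 822 interactions, and their starts were spaced by 24 bases throughout, as in a tandem repeat.

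Among the genes reported here, RGS3, EXOC6B and LHFPL6 had the own gene body interactions with the largest contact counts. The strongest joined an internal start site of RGS3, a regulator of G protein signaling (chr9:113580001-113585000), to a bin 130 kb upstream near the 5′ end of the gene (chr9:113450001-113455000). Its contact count was 181 (exact Poisson 95% interval, 156 to 209), the 12th largest of the whole list. That is 6.96 times the median of all listed interactions at 130 kb. Here and below, Poisson and Wilson intervals cover counting error only. EXOC6B, a subunit of the exocyst that tethers secretory vesicles, had 138 read pairs (116 to 163) between its start (chr2:72825001-72830000) and its first intron 55 kb away (chr2:72770001-72775000). LHFPL6, a tetraspan membrane protein, had 117 (96.8 to 140) over 150 kb. SEC14L1, a member of a lipid-binding family, had 112 over 95 kb, and LMLN, a metallopeptidase, had 110 over 55 kb.

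Contact counts between 88 and 109 followed for the 5 next genes in this order. SLC1A2, a glutamate transporter, had 109 over 75 kb, and ATP6V0A1, a subunit of the vacuolar proton pump, had 104 over 65 kb. MYO7A, an unconventional myosin, had 91 over 60 kb, PALM2AKAP2, which encodes an anchor of protein kinase A, had 89 over 215 kb, and ASAP2, a GTPase-activating protein for ARF proteins, had 88 over 125 kb. The intervals of neighbors in this order overlap. The 10 interactions named here are not the 10 largest, because the one with the 3rd largest contact count was passed over (118 read pairs over 60 kb). That interaction had no HLF motif in either bin and was part of a merged group. Its body bin lay downstream of the start site and took part in 10 listed interactions. Of the 10 named interactions, 7 had an HLF motif in the body bin and 3 in the promoter bin. EXOC6B and SLC1A2 were among both, while ATP6V0A1 and MYO7A had none in either. In 4 of the 10 (RGS3, SEC14L1, SLC1A2 and PALM2AKAP2) the body bin lay upstream of an internal start site. In 6 of the 10 the body bin took part in 10 or more listed interactions, and only PALM2AKAP2 was a single bin pair, the other 9 being part of a merged group of neighboring bin pairs.

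RGS3 had 3 further own gene body interactions, with contact counts of 45, 36 and 41. Each started from another internal promoter bin, 60 to 110 kb from the same 2 adjacent bins near the 5′ end of the gene. SLC1A2 also had 3 in all (109, 67 and 22), which ended in 2 adjacent bins of its first intron. The pair of LMLN interactions (110 and 85) shared the promoter bin, which took part in 15 listed interactions, and ended 55 and 70 kb into the gene.

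Over all 822, the contact count had a median of 27 (quartiles, 20 and 35; range, 12 to 181), against 24 for the 6610 interactions of a promoter bin with a distal bin outside its own gene. Own gene body interactions were shorter, with a median distance of 85 kb (quartiles, 65 and 140; range, 50 to 930) against 280 kb, and 492 of them (59.9%) spanned up to 100 kb. Contact counts fall with distance, so the classes were compared at the same distance in steps of 5 kb. Own gene body interactions were higher by 0.08 on the log2 scale (SE 0.023, 95% interval 0.03 to 0.12, n = 23 chromosomes, P = 0.00241, adjusted P = 0.00422). The test is least squares with errors clustered on 23 chromosomes and Benjamini-Hochberg adjustment over 7 fits. Chromosomes of 1 merged map are not replicates, so the P values measure the spread between chromosomes only (n = 23 throughout). With the start of the gene feature as the only promoter, the difference was 0.06 (n = 23 chromosomes, adjusted P = 0.245). With the summed count of the merged group in place of the contact count it was 0.16 (n = 23, adjusted P = 0.000947).

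A contact count of at least 50 was reached by 69 of the 822 (8.39%; Wilson 95% interval, 6.69 to 10.5%), in 59 genes, against 2.83% of all listed interactions and 2.66% of the promoter-to-distal interactions. These shares were not matched on distance, and their difference was not tested by itself. A total of 447 (54.4%) lay above the median of all interactions at their own distance, against 47.6% of the whole list, and 14 lay above 3 times that median. A q-value under 1e-05 was reached by 578 (70.3%), close to the 66.5% of the whole list.

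**Figure D1:**
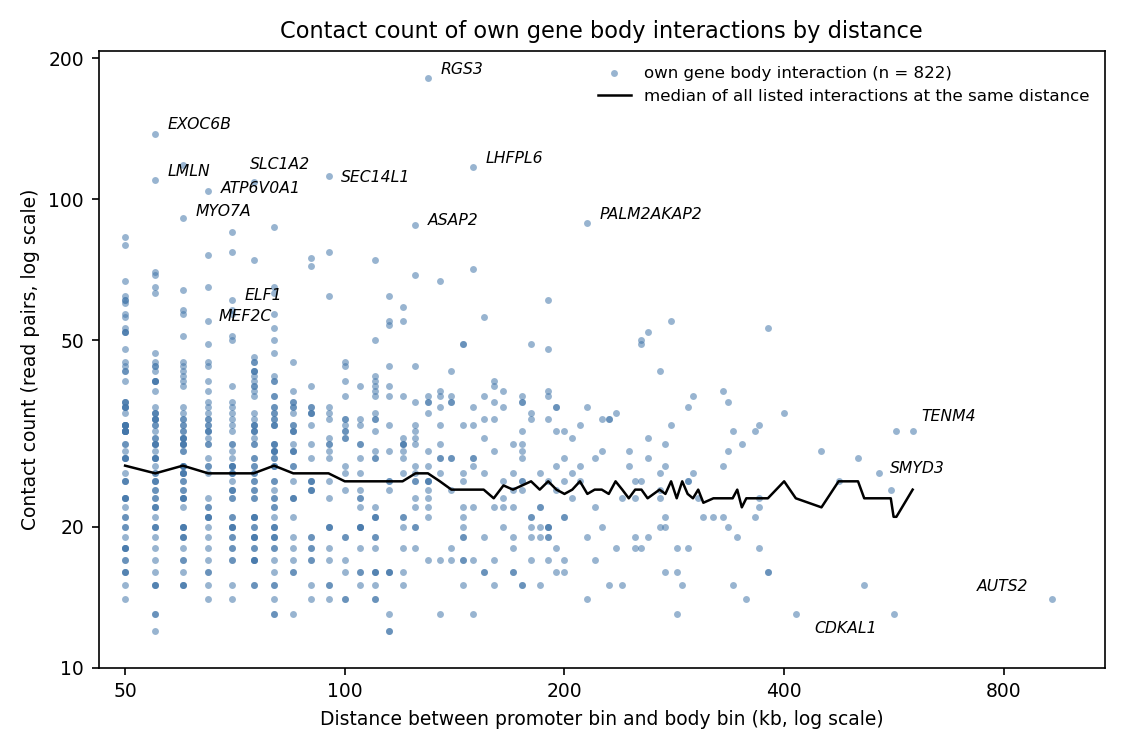
Contact count (read pairs, log scale) against distance between the promoter bin and the body bin (kb, log scale) for the 822 own gene body interactions, 1 point each, with the median of all listed interactions at the same distance as a line up to 600 kb. RGS3 lies highest with 181 read pairs at 130 kb, most points lie between 50 and 100 kb, and AUTS2 lies farthest right with 14 read pairs at 930 kb.

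Neighboring bin pairs were also significant more often around own gene body interactions. FitHiChIP merges such neighbors into groups, and 158 of the 822 (19.2%) belonged to a merged group of more than 1 bin pair, against 7.69% of all listed interactions and 7.25% of the promoter-to-distal interactions. At the same distance the difference to the latter was 6.57 percentage points (SE 1.38, 95% interval 3.70 to 9.44, n = 23, adjusted P = 0.000224). With the start of the gene feature as the only promoter it was 5.30 percentage points (n = 23, adjusted P = 0.0998). Among the 69 that reached 50 read pairs, 50 (72.5%) were in merged groups.

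Genes differed in how many own gene body interactions they had. Exactly 1 was found in 296 of the 462 genes, 166 had more than 1 and 26 had 5 or more. ATRNL1, which encodes an attractin-like membrane protein, had the most, with 12. All of them started from 1 internal promoter bin (chr10:115300001-115305000), 8 ran downstream and 4 upstream, over 50 to 515 kb. Their contact counts ran from 15 to 41 with a median of 26, so that none was among the strongest. Each of the 12 body bins took part in no other listed interaction, and 6 held an HLF motif. RERE, a nuclear co-regulator with arginine and glutamic acid repeats, had 11 from 3 promoter bins, 6 upstream and 5 downstream, with contact counts of 19 to 41.

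CDK14, a kinase that pairs with membrane-bound cyclin Y, had 9 interactions from 1 promoter bin (chr7:90595001-90600000), 8 of them downstream. The highest of these, 52 read pairs (38.8 to 68.2) at 260 kb, was 2.26 times the median of all interactions at that distance, whereas the other 8 lay between 16 and 37. ZFYVE9, an endosomal adaptor of the transforming growth factor β receptor, had 8 from its 5′ promoter bin (chr1:52140001-52145000), all downstream, with the highest median contact count of these genes (49; range, 22 to 75). Contact counts of 60, 75, 59 and 71 were found at 50, 90, 120 and 150 kb along this gene of 207 kb, and 1 of its 8 body bins held an HLF motif. RDX, which encodes radixin, a linker of actin to the membrane, had 8 over 55 to 330 kb, all downstream, with 55 read pairs at 280 kb as the highest.

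FOXP1, a forkhead factor required in early B cell development, had 8 interactions from 3 promoter bins, 5 of them upstream, with contact counts of 14 to 35. CSGALNACT1, an enzyme of chondroitin sulfate synthesis on chromosome 8, had 9 from 2 promoter bins, all downstream, with contact counts of 19 to 44. Interactions that share a promoter bin share its coverage and are not independent observations. The patterns of 6 genes are drawn to scale in the plot of arcs along genes.

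**Figure D2:**
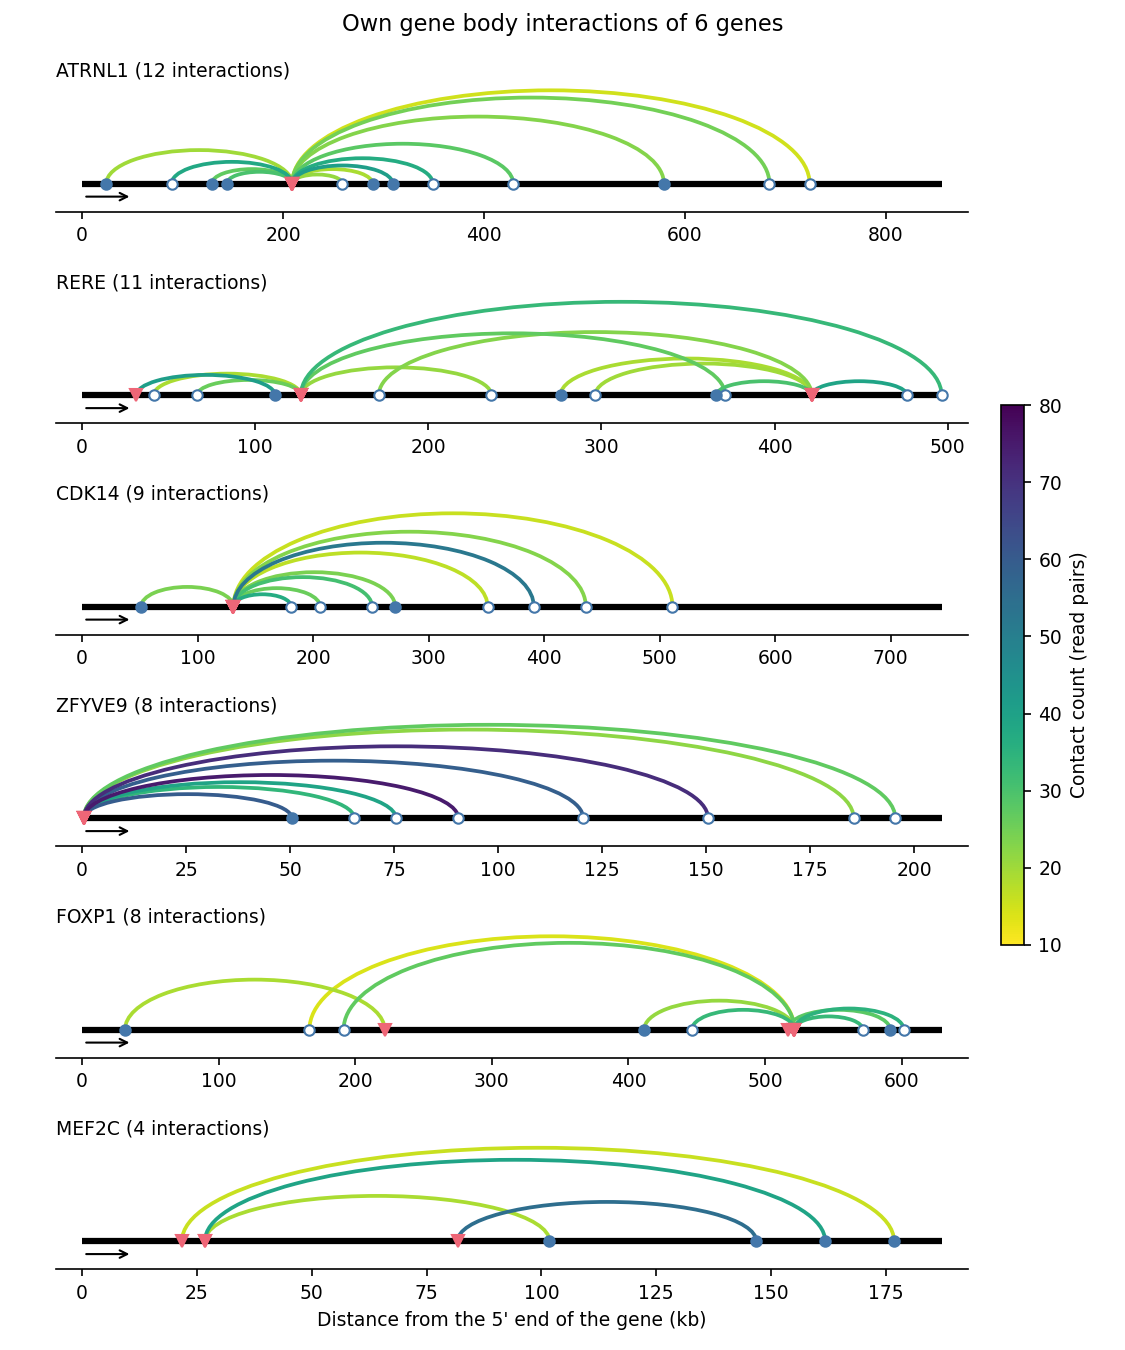
Own gene body interactions of ATRNL1, RERE, CDK14, ZFYVE9, FOXP1 and MEF2C as arcs along each gene, with the distance from the 5′ end of the gene (kb) on the x axis, the black bar as the gene and the arrow as the direction of transcription. Triangles are promoter bins, circles are body bins (filled where they hold an HLF motif), the color is the contact count and the height of an arc is its distance relative to the longest of that gene. The ATRNL1 arcs leave 1 internal start in both directions, the ZFYVE9 arcs leave the 5′ end in 1 direction, and the 4 body bins of MEF2C all hold a motif.

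Long own gene body interactions were rare. A distance above 300 kb was found for 35 and above 500 kb for 8. The longest, 930 kb, joined a start site near the 3′ end of AUTS2, a long gene studied in neurodevelopment, to its first intron with 14 read pairs (7.65 to 23.5). TENM4, a teneurin of the cell surface, followed with 32 read pairs over 600 kb, and RABGAP1L, a regulator of Rab GTPases, with 32 over 570 kb. CDKAL1, a modifier of transfer RNA, had 13 over 565 kb and SMYD3, a lysine methyltransferase, had 26 over 540 kb. Relative to all interactions at their distance, these ranged from 0.609 times the median (AUTS2) to 1.52 times (RABGAP1L). The Poisson intervals of these 5 counts overlap in every pair, so their order is not resolved.

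Promoters were listed more often with the bins of their own gene than with bins on their other side. Listing falls with distance, so each promoter bin was compared with itself at the same distance. A possible pair was any promoter bin with any bin of its own gene without a coding start, 50 kb to 3 Mb away. Of 425278 such pairs, 0.193% were listed (1.93 per 1000). For 203996 of them, the bin at the same distance on the upstream side of the same promoter could be compared. The promoter bin had all its coding starts on 1 strand, and the body bin lay downstream. The upstream bin held no coding start and lay outside the genes that start in the promoter bin. Bins with unknown bases were left out. The body side held 419 listed interactions (2.05 per 1000) and the upstream side 315 (1.54 per 1000), with both sides listed in 14 cases. The difference was 0.51 per 1000 (SE 0.153, 95% interval 0.19 to 0.83, n = 23, adjusted P = 0.00427), a ratio of 1.33.

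The body side was higher on 16 chromosomes, the upstream side on 4 and neither on 3. The excess was found at each distance at which any were listed. It was 3.80 against 3.02 per 1000 from 50 to 100 kb, 2.25 against 1.59 from 105 to 200 kb, 1.14 against 0.778 from 205 to 400 kb and 0.257 against 0.147 from 405 to 800 kb, where 7 and 4 interactions were listed. Beyond 800 kb both sides had 0 of 11826, which allows a rate of up to 0.254 per 1000. Against upstream bins outside every coding gene the difference was 0.36 per 1000 (n = 23, adjusted P = 0.119), and against upstream bins inside another coding gene it was 0.72 (adjusted P = 0.00511). With the start of the gene feature as the only promoter it was 0.48 (n = 23, adjusted P = 0.0767).

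**Figure D3:**
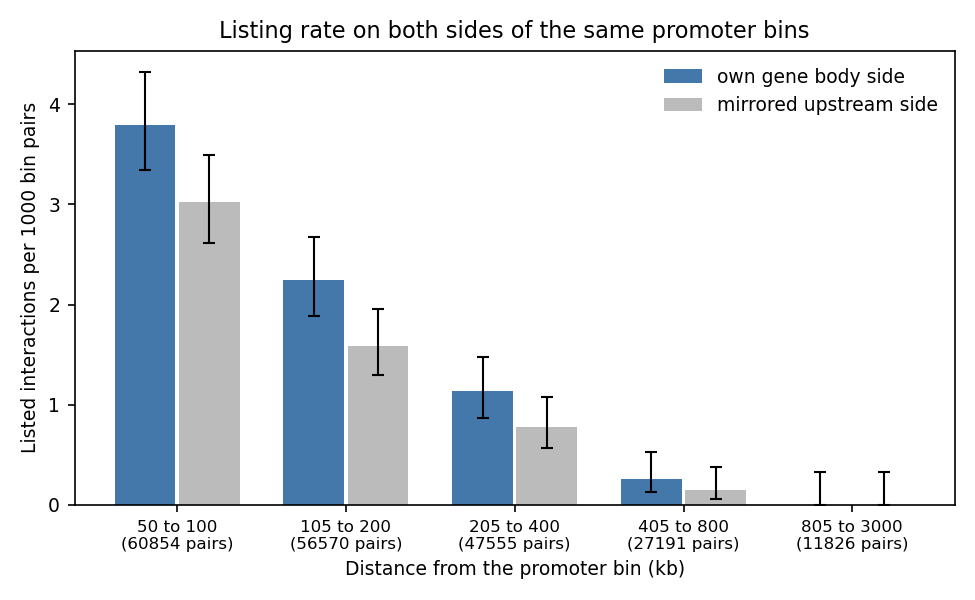
Listed interactions per 1000 bin pairs on the own gene body side and at the mirrored position upstream of the same promoter bins, by distance (kb), with Wilson 95% intervals as bars. The body side is higher in the 4 distance classes up to 800 kb (3.80 against 3.02 per 1000 in the nearest), with intervals that overlap within each class, and both are 0 beyond.

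HLF motifs were more frequent in the bins of the own gene body interactions than in the possible pairs. Interactions were called with peaks of the same pulldown as reference, and the possible pairs were not matched on those peaks. Counted once per interaction, the body bin held a motif in 344 of the 822 (41.8%) and the promoter bin in 342 (41.6%). Over all possible pairs the shares were 32.6% and 30.8%. Of all 581574 bins without unknown bases on chromosomes 1 to 22 and X, 30.6% held one. At the same distance, body bins with a motif were listed more often by 0.94 per 1000 (SE 0.139, n = 23, adjusted P = 6.55e-06), with raw rates of 2.48 against 1.67 per 1000. Promoter bins with a motif were listed more often by 1.14 per 1000 (SE 0.238, n = 23, adjusted P = 0.000224), with raw rates of 2.61 against 1.63. With GC content as a further term, an alternative added after seeing the data, these differences were 1.08 and 1.39 per 1000.

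The rarer palindrome TTACGTAA was found in the body bin of 39 interactions (4.74%) and in the promoter bin of 36 (4.38%). Over all possible pairs the shares were 2.08% and 2.20%. For this sequence alone the difference between body bins with and without it was 2.57 per 1000 (n = 23, adjusted P = 0.00342), and that between promoter bins was 1.98 (n = 23, adjusted P = 0.168). The body bins of MEF2C and promoter bins of EXOC6B and NFIA whose windows are printed above are among those that hold it. Within an interaction, the difference of 0.24 percentage points between body and promoter bins did not pass the test (SE 2.67, 95% interval -5.29 to 5.77, n = 23, adjusted P = 0.928). For comparison, a motif was found in 37.9% of the distal bins and 40.4% of the promoter bins of promoter-to-distal interactions, also counted once per interaction.

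Taking both bins together, 138 of the 822 interactions (16.8%) had a motif at both ends, 206 in the body bin only, 204 in the promoter bin only and 274 (33.3%) in neither. The listing rate was 1.36 per 1000 possible pairs without a motif (Wilson 95% interval, 1.21 to 1.53), 2.22 (1.94 to 2.55) with a motif in the body bin only, 2.40 (2.09 to 2.75) with one in the promoter bin only and 3.00 (2.54 to 3.54) with one in both. Contact counts differed little between these classes, with medians of 26, 26, 28 and 28.5. A contact count of at least 50 was found in 5.84% of the interactions without a motif, 11.7% of those with one in the body bin only, 7.35% of those with one in the promoter bin only and 10.1% of those with both. These differences were not tested.

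**Figure D4:**
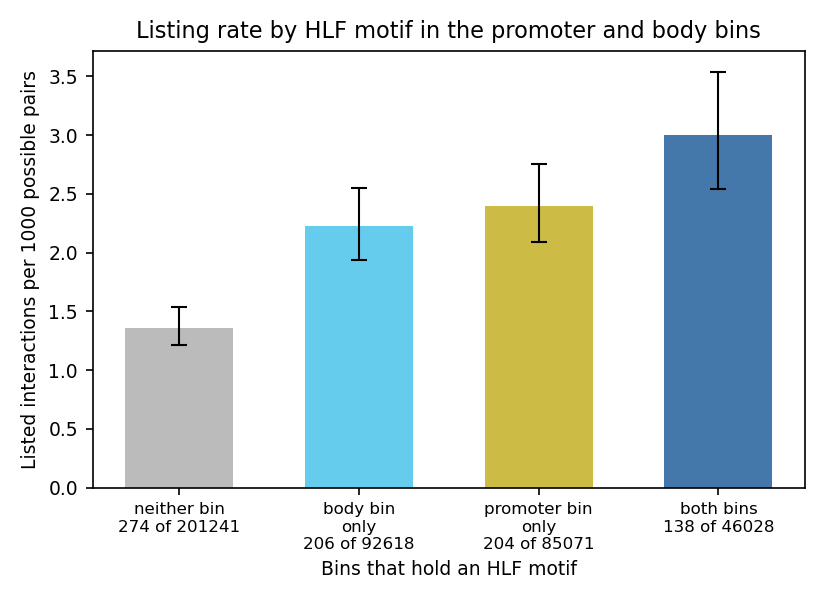
Listed own gene body interactions per 1000 possible pairs by the presence of an HLF motif in the body bin, the promoter bin, both or neither, with Wilson 95% intervals as bars and the numbers of listed and possible pairs under each bar. The rate is 1.36 with no motif, 2.22 and 2.40 with a motif in 1 bin and 3.00 with a motif in both.

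Body bins were spread over the gene rather than gathered near one end. Their median position was 52.9% of the way from the 5′ end to the 3′ end (quartiles, 30.3 and 77.7%), which for bins at least 50 kb from a start site is in part set by the distance limit. Positions and exon shares were not compared with those of all possible pairs. Counted once per interaction, 230 body bins (28.0%) overlapped an exon of the canonical transcript and 134 (16.3%) lay wholly in its first intron. A later intron held 358 (43.6%), and 100 (12.2%) lay outside the span of that transcript. First-intron bins were listed at 2.31 per 1000 possible pairs and other bins at 1.87, a difference at the same distance of 0.26 (SE 0.204, 95% interval -0.16 to 0.69, n = 23, adjusted P = 0.247), so that an excess of up to 0.69 per 1000 was not resolved. With every transcript of coding genes counted as a start it was 0.44 (n = 23, adjusted P = 0.0109). In 603 interactions (73.4%) the body bin lay downstream of the start site and in 219 (26.6%) upstream of an internal one. The listing rate of upstream bins was 1.54 per 1000, against 2.11 for downstream bins, both for promoters with all starts on 1 strand. These raw rates were not matched on distance, and their difference was not tested.

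In most of the 822 interactions the body bin was not an anchor of many contacts, a share that was not compared with that of all listed bins. In 400 of the 822 interactions (48.7%) the body bin took part in no other listed interaction, and in 110 (13.4%) it took part in 10 or more, with 51 as the highest. The promoter bin took part in 10 or more in 174 (21.2%), with a median of 4 against 2 for body bins. These values are counted once per interaction, so a promoter bin with several own gene body interactions weighs more. Of the 548 promoter bins, 257 also had a listed interaction with a distal bin outside their own gene. As a measure of near-identical sequence, the 31-mers shared by the 2 bins were counted, and 639 of the 822 shared 0, none shared 500 or more, and the highest number was 323.

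Of 6796 coding genes with at least 1 possible pair, 462 (6.8%) had one. The share was 2.21% of the 3211 genes under 100 kb, 7.41% of the 2105 genes from 100 to 200 kb, 15.8% of the 1161 from 200 to 500 kb and 16.0% of the 319 longer ones. These shares were not tested, and long genes also have more possible pairs at long distances. Per 1000 possible pairs, the listed number was 4.33 in the shortest class, then 3.19 and 2.48, and 0.713 in the longest. The 462 genes had a median length of 205 kb, against 105 kb for all 6796. By chromosome, own gene body interactions made up between 0.295% (chromosome 19, with 2) and 2.74% (chromosome 15, with 44) of the listed interactions.

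For some gene lists, the Wilson interval of the share of genes with an own gene body interaction lay above the 6.8% of all coding genes. These were the lists of chromatin regulators, of apoptosis and cell cycle genes, and of blood and B-lineage transcription factors. The same held for antigen receptor signaling, leukocyte adhesion and other signaling genes. The lists were chosen with earlier results of these data known, so an interval above 6.8% is not a test of an excess. They were also not matched on length (median length of the listed genes, 90.4 to 1043 kb, against 105 kb for all genes with a possible pair). Their shares are given as a description with no test.

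The list of blood and B-lineage transcription factors had 8 of 34 genes with a possible pair (23.5%; Wilson 95% interval, 12.4 to 40.0%) and 23 interactions, with a median contact count of 28. ELF1, an ETS factor of lymphoid cells, had the highest, 61 (46.7 to 78.4) over 70 kb, followed by MEF2C with 55. ETV6, ARID5B, FOXP1, STAT3, IKZF3 and FLI1 were the others. MEF2C, a MADS box factor of myeloid and B cell development, had 4 own gene body interactions from 3 promoter bins. Their contact counts were 55 (41.4 to 71.6) at 65 kb, 19 at 75 kb, 39 at 135 kb and 16 at 155 kb, all downstream, and each of the 4 body bins held at least 1 HLF motif and took part in no other listed interaction. The interaction inside MEF2C with the largest contact count joined 2 bins that both hold a coding start, 60 kb apart, and is therefore not among the 822. Another interaction between 2 bins with a coding start, with 54 read pairs over 95 kb, is also not among the 822. A further listed interaction inside the gene, with 40 read pairs over 110 kb, joined bins without a coding start.

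Chromatin regulators had 10 of 35 (28.6%; 16.3 to 45.1%), led by CHD2, a chromatin remodeler, with 50 (37.1 to 65.9) over 80 kb, and HDAC4, a class IIa histone deacetylase, whose 6 interactions from 1 internal promoter bin had contact counts of 17 to 45. The 24 interactions of this list had a median contact count of 32. CHD7, ARID1B, TET2, HDAC9, KDM4C, KAT6B, ARID2 and CREBBP were the other genes. In apoptosis and cell cycle, 4 of 13 (30.8%; 12.7 to 57.6%) had one. CDK14 gave 9 of the 13 interactions of this list, and CDK6, the kinase that phosphorylates RB1 together with D-type cyclins, had 1 with 45 read pairs (32.8 to 60.2) over 55 kb. CCND3 and RB1 itself, the cyclin and the substrate, had at most 39 and 20.

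Antigen receptor signaling had 5 of 24 (20.8%; 9.24 to 40.5%). PRKCB, the protein kinase C of B cell receptor signaling, had the highest count, 30 over 170 kb, while the exchange factor VAV3, the calcium channel ITPR1 and the Src family kinase FYN had 21 each at most. The Poisson intervals of these counts overlap. Leukocyte adhesion had 3 of 15, with PECAM1, an adhesion molecule of leukocytes and endothelium, at 72 (56.3 to 90.7) over 90 kb and DOCK8, an activator of CDC42, at 36 over 50 kb. The remaining gene, ITGA9, had 5 interactions of 13 to 31 read pairs from 1 promoter bin. Cytokine receptors and JAK-STAT genes had 0 of 12, which allows a share of up to 25% and is not resolved from the other lists.

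Nuclear receptors and nuclear factor I genes had 3 of 21 (14.3%; 4.98 to 34.6%). NFIA, a factor of glial and blood cell fate, had 4 interactions from 4 promoter bins with 56 (42.3 to 72.7) at 50 kb as the highest, and they ended in 2 body bins, each shared by 2 of them. NR3C1, the glucocorticoid receptor, had 28 read pairs over 75 kb, with 2 motifs in the promoter bin and 1 in the body bin. The list of other signaling genes had 8 of 28 (28.6%; 15.3 to 47.1%), with MAP3K5, a stress-activated kinase, at 34 over 225 kb and ARHGAP26, a GTPase-activating protein, at 33 over 85 kb. Neuronal adhesion and synaptic genes, the longest of the lists, had 3 of 36 (8.33%; 2.87 to 21.8%) and 0.165 listed interactions per 1000 possible pairs, the lowest rate above 0. CLSTN2, a calsyntenin, had 26 read pairs over 125 kb, and NCAM1, a neural cell adhesion molecule that also marks natural killer cells, had 25 over 190 kb.

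**Figure D5:**
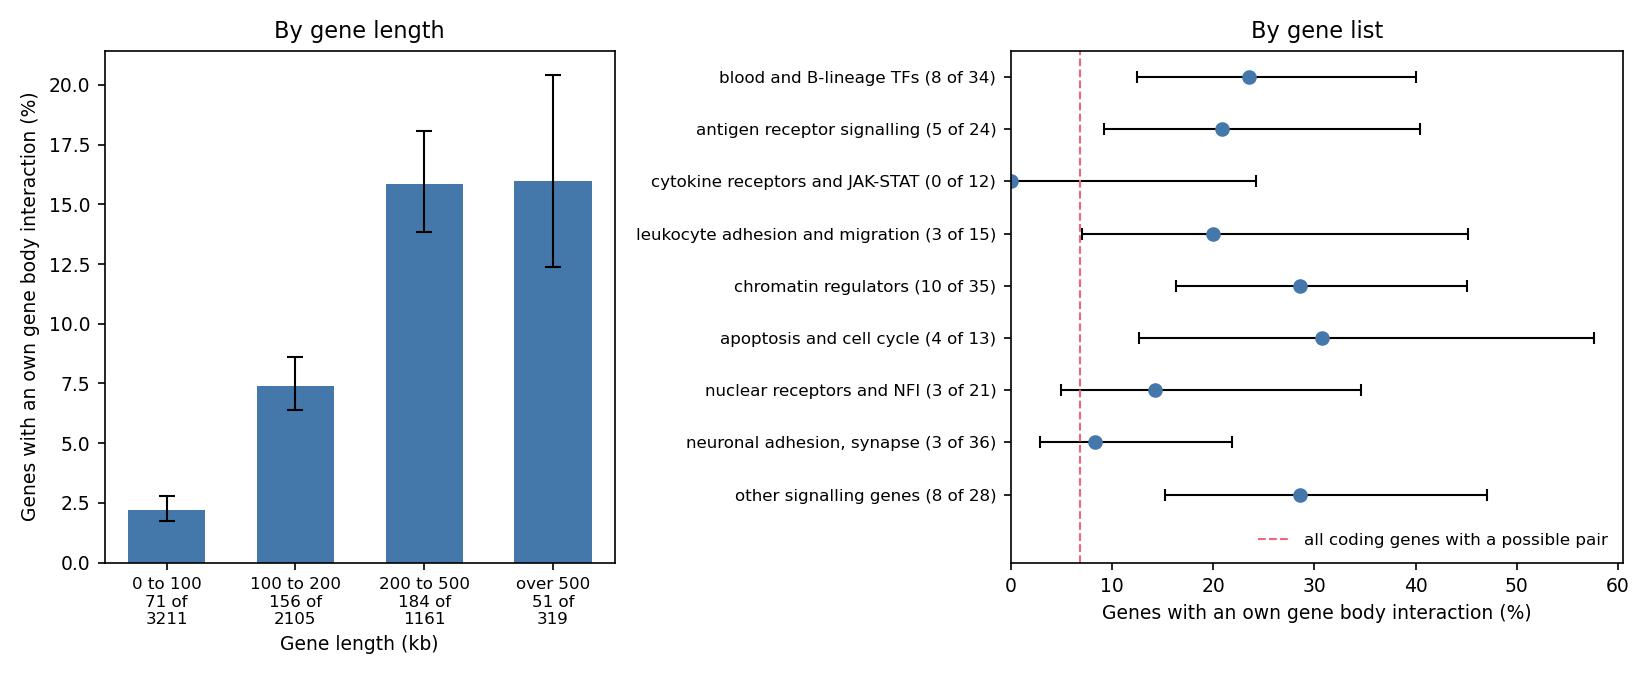
Share of coding genes with at least 1 own gene body interaction (%), by gene length (left, kb) and by gene list (right), with Wilson 95% intervals and the numbers of genes. The share rises from 2.21% under 100 kb to 15.8% and 16.0% in the longer classes, and the lists run from 0 of 12 to 4 of 13 genes, with the dashed line at the 6.8% of all coding genes with a possible pair.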

How the data were processed

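The authors trimmed the HiChIP reads with Trim Galore 0.6.6, merged the 2 replicates, mapped them to hg38 using BWA-MEM and took pairs from pairtools without removing duplicates. They called interactions with FitHiChIP (version not given in the sources used here) between 5-kb bins 50 kb to 3 Mb apart at a q-value of 0.01, with MACS2 peaks as reference, and merged nearby contacts. The deposited contact counts are read pairs without normalization and include copies of a read pair, so that Poisson intervals understate the error. The p-value and q-value columns are those the authors deposited, and the deposited fraction, a share of significant pairs per merged group, entered no test. The summed count of a merged group served to tell groups from single bin pairs and, as an alternative, in place of the contact count.

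Start sites were those of protein-coding transcripts in GENCODE release 44, bodies the span of the gene feature, and coordinates are 1-based. Listing rates used all 425278 possible pairs (424958 without unknown bases). The 7 comparisons were least-squares fits with distance in 5-kb steps as a factor or paired, errors clustered on 23 chromosomes, two-sided, with Benjamini-Hochberg adjustment over the 7 fits. On simulated data without an effect, 4 of 50 listing-rate fits on 425278 pairs and 4 of 50 contact-count fits on 7432 interactions gave p under 0.05, and with an effect 50 of 50 did. The simulated pairs were drawn independently within a chromosome, and listing was fitted on the body-bin motif only. Listings that share a promoter bin, and the other listing-rate fits, were therefore not checked. The depth of the libraries is not in the list, whose contact counts cover significant interactions only. Named genes were the 10 interactions with the largest contact count, the genes with the most interactions (7, with ties), the 5 longest interactions and the 2 highest genes of each list, together with genes counted beside them. Genes that could not be named were passed over. The rule and the gene lists were chosen with earlier results of these data known. Copy number, peaks and expression were not analysed here. The tools were matplotlib 3.10.9, scipy 1.17.1, pandas 2.3.3, numpy 2.4.6 and Python 3.11.15.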

Additional observations from a re-analysis of the deposited data

How the results depend on the processing

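Of 85 values from alternative settings, 71 stayed on the same side of the threshold or within the limit set for a count, and of these only the body-against-promoter motif share difference lost its direction, at -0.51 percentage points without chromosomes 17 and 19 and 0 with a q-value under 0.001. The definition of a start site moved most of the others. With the start of the gene feature alone there were 363 own gene body interactions, the contact count difference was 0.058 on the log2 scale (n = 23 chromosomes here and below; adjusted P = 0.245), the merged-group difference 5.30 percentage points (adjusted P = 0.0998), the side difference 0.48 per 1000 (adjusted P = 0.0767) and the share of genes 3.75%. With every transcript of coding genes there were 1259, the share of genes was 9.40% and the first-intron difference was 0.44 per 1000 (n = 23; adjusted P = 0.0109). The side difference was 0.36 per 1000 against mirrored bins outside every coding gene body (n = 23; adjusted P = 0.119), and the promoter-bin motif difference was 1.98 per 1000 for TTACGTAA alone (adjusted P = 0.168). The difference in motif share between body and promoter bins, which did not pass the test in any setting, also turned to -4.67 percentage points with a q-value under 1e-05 and -4.35 with contact counts of at least 20. The share of genes was 5.27% and 5.62% with these. The cause was not tested, apart from fewer interactions under the stricter settings. Without the 7 genes with the most interactions, a setting added once the data had been seen, the side difference was 0.41 per 1000 (n = 23; adjusted P = 0.0116). With summed counts of merged groups the contact count difference was 0.158 (n = 23; adjusted P = 0.000947). The body-bin motif difference passed the threshold in all 11 alternatives (0.54 to 2.57 per 1000). No paired analysis was possible because the replicates were merged before calling and only 1 condition was measured, and for the same reason neither replicate could be left out. A contact count of 12, the lowest here, has a wide Poisson interval, and absent pairs are not shown to lack contact.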
